A study of Mus musculus with 6 samples.

Results

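The genes described here are 34 mitosis genes of the mouse, covering the cyclins and kinases of mitotic entry, the spindle checkpoint and the ubiquitin ligase it holds back, the kinetochore, the spindle and the division furrow, with kinesins left out apart from Cenpe. Members were the rows of the deposited expression table whose target ID equals a listed gene (CDC2A is the older ID of Cdk1), which gave 33 members among 30828 target IDs. No row carries the ID NUF2. Under its older name CDCA1 the gene was not above background on any array, and it is left out here. Of the 33 members, 23 lay above background and were tested, and 10 did not and are described by their values alone.

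The measurements come from MC38, a mouse colorectal cancer cell line, grown in medium with foetal calf serum. EPA cells (3 samples) had 50 µM eicosapentaenoic acid, an omega-3 fatty acid of fish oil added as the free acid, for 24 h, and control cells (3 samples) are labelled only as control, with no vehicle or time given. A difference in vehicle or time in culture therefore cannot be told apart from EPA. Each sample was read on 1 Illumina mouse bead array, and the values are quantile-normalised intensities, so levels are compared within a gene and not between genes. The labels do not state whether the 3 samples of a group were grown apart from each other, and the p-values then reflect sample-to-sample spread that could be purely technical.

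Array medians lay between 35.228 and 35.235, and pairs of arrays correlated at 0.994 to 0.997 (log2 intensity) inside a group and at 0.984 to 0.986 across groups. Of the 13 epithelial and intestinal markers with a target ID, 2 (Krt8 and Lgals4) were above background on all arrays, and Vil1, Cdx2, Krt19 and Krt20 were not above background in either group as a whole. Among 8 immune markers, Cd14 and Cd68 were above background, and the pan-leukocyte gene Ptprc and the T cell gene Cd3e were not on any array. None of the 4 endothelial markers was tested. Of 5 fibroblast markers 4 were tested and 3 rose (Dcn, Pdgfra and Pdgfrb), the summed intensity of the list running from 900 to 926 in EPA cells and from 486 to 509 in control cells, while Lum was not above background. Whether this shift has a part in the mitosis results was not tested.

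Entry into mitosis is driven by Cdk1 with its B-type cyclins and is reinforced by Polo-like and Aurora kinases. The spindle checkpoint then delays chromosome separation by restraining Cdc20, the activator of the anaphase-promoting complex (APC/C), until every kinetochore is attached to microtubules. Most of these genes are transcribed late in the cell cycle, through the MuvB complex with B-Myb and FoxM1, which binds a promoter element called the cell cycle genes homology region (CHR), often next to CCAAT boxes bound by NF-Y. Their transcripts are thus high in cells in G2 and mitosis, and tumour lines that divide fast usually express many of them. In RNA from whole cultures, fewer cells in G2 and mitosis and less RNA per cell cannot be told apart.

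Most of the tested mitosis genes showed no difference between EPA and control cells that passed. Of the 23 tested, 5 rose with EPA (Anln, Prc1, Cenpf, Cdc20 and Bub1b), 1 fell (Mad2l1) and 17 did not pass (limma, adjusted p under 0.05 over 11724 targets). That is 26.1% called, against 33% of all targets tested, with 16.4% of all targets higher and 16.6% lower. For a list of 23 genes these shares lie near each other, and no difference between them was tested. The median intensity was 426.5 for the tested mitosis genes and 144.4 for all targets tested. These medians describe array signal, and do not compare RNA amounts between genes. The median log2 difference of the 23 genes was 0.10, against 0.00 for all targets tested. Single genes ran from -0.24 for Mad2l1 to 0.50 for Anln. Among the called genes the median absolute log2 difference was 0.33 for the mitosis genes and 0.40 for all targets. The difference was positive for 18 of the 23 genes and for 50% of all targets.

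**Figure D1:**
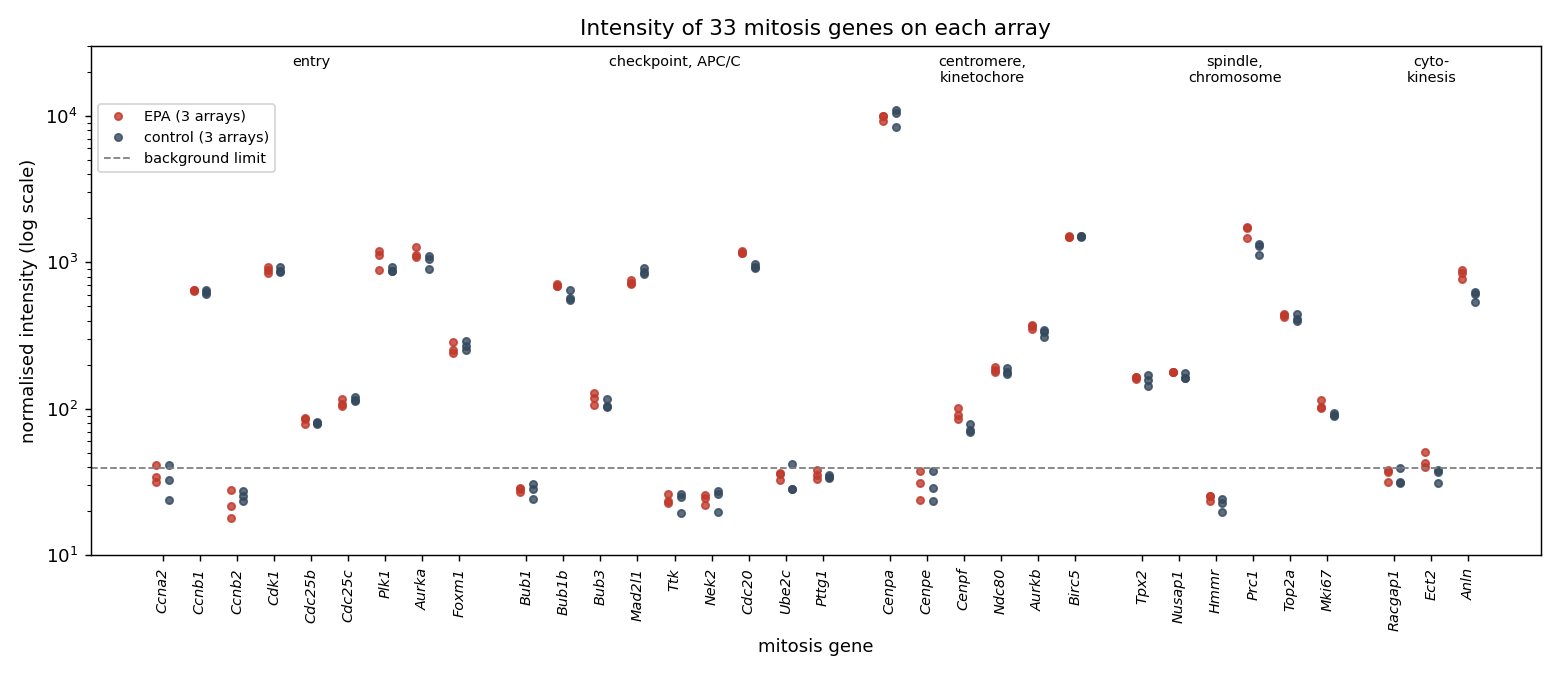
Normalised intensity (vertical axis, log scale) of the 33 mitosis genes on each array, grouped by role, with each gene's 3 EPA arrays left of its 3 control arrays. The dashed line is the background limit of 39.7, and 10 genes lie below or near it in both groups.

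What the promoters of these genes share was searched in RefSeq windows of assembly GRCm38.p6 that run from 250 bases before to 50 bases after each annotated start. Windows were listed for 29 of the 34 genes (32 windows). The CHR, searched as TTTGAA and TTCGAA on both strands, was present in 24 of the 32 windows (75%), against 19.2% of 32851 windows of all genes. CCAAT, on either strand, was present in 25 of the 32 (78.1%), against 37.4% of all windows, and both motifs stood together in 22 (68.8%), against 7.52%. By call, all 5 genes that rose had a CHR match in at least 1 window, the gene that fell had none, and 10 of the 13 matched genes that did not pass had one. These are matches of letters in a window, not shown sites. The 100 bases before the start are printed for 6 genes, chosen as 2 that rose, 3 that did not pass and the 1 that fell, 5′ to 3′ on the gene's strand, with CHR and CCAAT matches on either strand in capitals.
Cdc20, chr4:118437344-118437443, minus strand, rose: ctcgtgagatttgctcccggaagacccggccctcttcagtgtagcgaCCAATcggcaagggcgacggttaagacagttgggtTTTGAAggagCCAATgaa
Prc1, chr7:80294376-80294475, plus strand, the downstream of 2 listed starts, rose: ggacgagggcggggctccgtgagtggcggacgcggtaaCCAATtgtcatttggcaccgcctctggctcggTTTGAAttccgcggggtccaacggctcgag
Cdk1, chr10:69352913-69353012, minus strand, not past: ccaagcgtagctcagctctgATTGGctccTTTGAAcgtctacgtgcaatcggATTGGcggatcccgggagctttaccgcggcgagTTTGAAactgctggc
Top2a, chr11:99024190-99024289, minus strand, not past: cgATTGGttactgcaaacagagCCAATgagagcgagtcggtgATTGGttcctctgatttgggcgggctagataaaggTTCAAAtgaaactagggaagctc
Ccnb1, chr13:100786487-100786586, minus strand, not past: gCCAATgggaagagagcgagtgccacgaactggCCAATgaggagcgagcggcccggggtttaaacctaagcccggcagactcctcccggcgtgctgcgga
Mad2l1, chr6:66535121-66535220, plus strand, fell: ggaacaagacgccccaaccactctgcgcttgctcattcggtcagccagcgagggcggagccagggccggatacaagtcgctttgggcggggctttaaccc
The stretches of Cdc20 and Cdk1 carry the same kinds of match, although Cdc20 rose and Cdk1 did not pass. Of the spellings searched, Ccnb1 has CCAAT alone and Mad2l1 neither in the stretch shown. Other spellings of the CHR were not searched, so a lack of matches does not show that a CHR is absent.

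None of the 7 tested genes of mitotic entry passed. Cdk1 (target CDC2A), the kinase that drives entry, had intensities of 892, 931 and 845 in EPA cells and 874, 924 and 865 in control cells. Its groups overlap, and the log2 difference was 0.00 (95% interval -0.17 to 0.17, limma adjusted p = 0.985). Ccnb1, which encodes cyclin B1, its activating partner, had 645, 638 and 651 in EPA cells and 644, 613 and 631 in control cells, a log2 difference of 0.03 (95% interval -0.12 to 0.19). The intervals of both genes thus stayed within 0.19 of 0 on the log2 scale. Foxm1, a transcription factor of late cell cycle genes, had 287, 240.1 and 252 in EPA cells and 267, 291 and 253 in control cells (log2 -0.06, 95% interval -0.27 to 0.14). Cdc25b and Cdc25c, the phosphatases that activate Cdk1, had log2 differences of 0.06 and -0.09.

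Plk1 and Aurka, kinases of spindle pole maturation and entry, had positive differences that did not pass. Plk1 had 883, 1200.3 and 1127 in EPA cells and 873, 876 and 926 in control cells, so 2 EPA arrays stood above every control array and EPA replicate 1 among them. Its log2 difference was 0.25 (95% interval 0.00 to 0.50, limma adjusted p = 0.112). Of 13 other settings it passed in 1, without EPA replicate 1 (log2 0.38, limma adjusted p = 0.00904). With any other array left out its log2 difference was 0.16 to 0.28 (limma adjusted p 0.154 to 0.325). Aurka had 1281, 1127 and 1084 in EPA cells and 906, 1056 and 1108 in control cells, with overlapping groups (log2 0.19, limma adjusted p = 0.179). Cyclins A2 and B2 could not be followed, since Ccna2 had 41.4, 34.0 and 31.8 in EPA cells and 23.8, 32.5 and 41.7 in control cells, and Ccnb2 was not above background on any array.

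**Figure D2:**
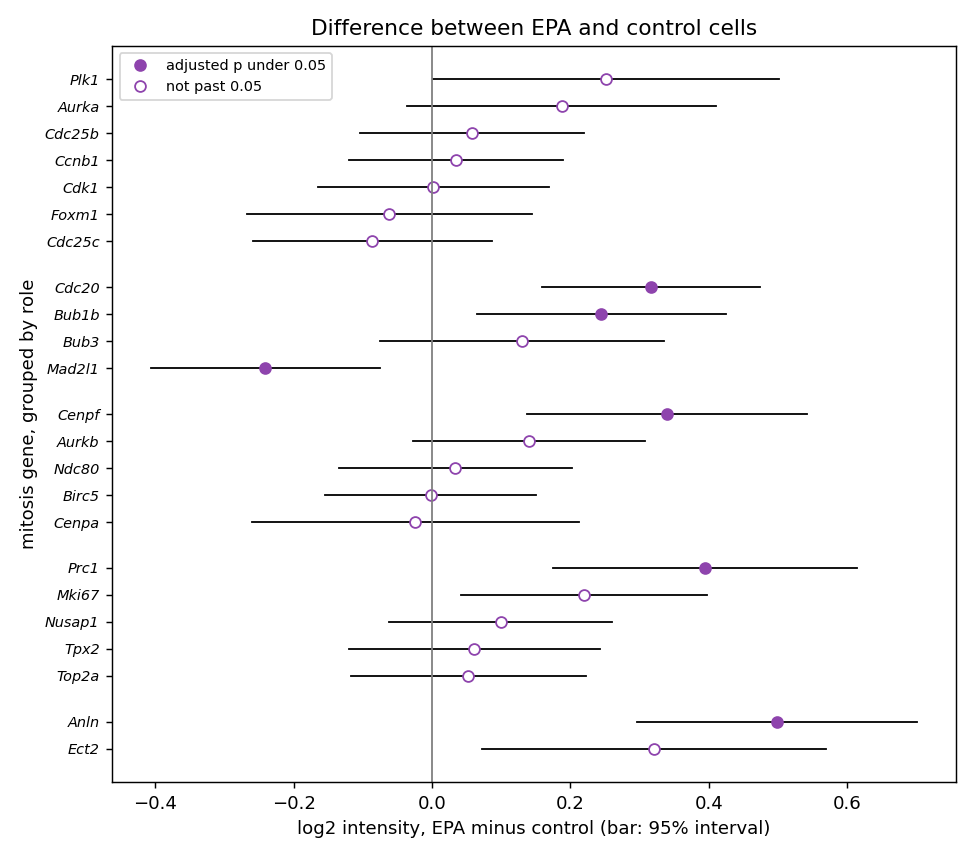
Log2 intensity difference, EPA minus control (horizontal axis), with its 95% interval from limma, for the 23 tested mitosis genes, grouped from top to bottom as entry, checkpoint and APC/C, centromere and kinetochore, spindle and chromosome, and cytokinesis. Filled points passed an adjusted p of 0.05: Cdc20, Bub1b, Cenpf, Prc1 and Anln lie right of 0 and Mad2l1 left of it, while the point of Ect2 rests on control arrays below the background limit.

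The called checkpoint genes went both ways. Of the 4 tested genes of the checkpoint and APC/C, 2 rose, 1 fell and 1 did not pass. Of all targets tested, 33% were called, 16.4% higher and 16.6% lower. Each role holds too few genes for its count to be set against these shares. Bub1b passed in 6 of 13 other settings and Mad2l1 in 5, so 2 of these calls were not firm. Cdc20 (target CDC20), the APC/C activator that the checkpoint restrains, had 1160.3, 1189.9 and 1160.3 in EPA cells and 977, 908 and 935 in control cells. Every EPA array lay above every control array, and Cdc20 rose 1.25-fold (1170.2 ± 17.1 against 940.01 ± 34.7, SD, n = 3 each, log2 0.32, SE 0.0705, limma adjusted p = 0.00787). Bub1b encodes BubR1, which binds Cdc20 within the inhibitory checkpoint complex. It had 715, 688 and 692 in EPA cells and 571, 645 and 556 in control cells, again without overlap, and rose 1.18-fold (log2 0.24, SE 0.0804, limma adjusted p = 0.0416).

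Mad2l1 (target MAD2L1), whose product Mad2 joins BubR1 in that complex, was the one member that fell. It had 711, 727 and 754 in EPA cells and 828, 910.1 and 855 in control cells. All EPA arrays lay below all control arrays, and the mean was 731 ± 22.0 in EPA cells and 864 ± 41.9 in control cells (SD, n = 3 each), a log2 difference of -0.24 (SE 0.0739, limma adjusted p = 0.0319). Bub3, the adaptor that carries Bub1 and BubR1 to kinetochores, had 128, 119 and 107 in EPA cells and 103, 104 and 117 in control cells and did not pass (log2 0.13). The kinase genes Bub1, Ttk and Nek2 and the securin gene Pttg1 were not above background on any array. Ube2c, the ubiquitin-conjugating enzyme of the APC/C, exceeded the limit on 1 control array only.

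Of the 5 tested centromere and kinetochore genes, 1 rose and 4 did not pass. Cenpf (target CENPF), a large kinetochore protein gene, had 102, 91.3 and 85.4 in EPA cells and 71.4, 78.9 and 69.6 in control cells. The groups do not overlap, and Cenpf rose 1.27-fold (log2 0.34, SE 0.09, limma adjusted p = 0.0176), or 1.43-fold with the background level subtracted. Aurkb, the kinase of the chromosomal passenger complex, had 372, 349 and 368 in EPA cells and 344, 312 and 334 in control cells. Its EPA arrays all lay above its control arrays, yet it did not pass (log2 0.14, 95% interval -0.03 to 0.31, limma adjusted p = 0.18). Birc5, which encodes survivin of the same complex, ran from 1486 to 1515 in EPA cells and from 1479 to 1521 in control cells, with a log2 difference of 0.00 (95% interval -0.15 to 0.15).

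Cenpa, the centromeric histone H3 variant, had 9166, 9988 and 10049.6 in EPA cells and 10458, 8410.5 and 10993 in control cells, and its groups overlap (log2 -0.02). Ndc80, which makes the microtubule-binding contact of the kinetochore, had a log2 difference of 0.03 (95% interval -0.14 to 0.20). Cenpe, a motor of chromosome alignment, was not above background on any array.

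Among the spindle and chromosome genes, 1 of 5 tested rose. Prc1 (target PRC1), which crosslinks antiparallel microtubules of the central spindle, had 1466, 1738 and 1723 in EPA cells and 1283, 1124 and 1341 in control cells. The groups do not overlap, EPA replicate 1 lying nearest to the controls, and Prc1 rose 1.31-fold (1643 ± 153 against 1249 ± 112.0, SD, n = 3 each, log2 0.39, SE 0.098, limma adjusted p = 0.0132). Mki67, the proliferation marker Ki-67 that coats mitotic chromosomes, had 116, 101 and 103 in EPA cells and 89.7, 90.2 and 93.7 in control cells. Although these groups do not overlap either, Mki67 did not pass (log2 0.22, 95% interval 0.04 to 0.40, limma adjusted p = 0.0593). Of 13 other settings it passed in 1, where targets had to be above the limit on all 6 arrays (limma adjusted p = 0.0489).

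Top2a, the topoisomerase that untangles sister chromatids, had 436, 444 and 422 in EPA cells and 446, 414 and 397 in control cells (log2 0.05, 95% interval -0.12 to 0.22). Its groups overlap, as do those of Tpx2, an activator of Aurora A (log2 0.06). Nusap1, a microtubule-bundling protein gene, did not overlap but did not pass (log2 0.10). Hmmr, which encodes a spindle-associated hyaluronan receptor, was not above background on any array.

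Cytokinesis held the largest difference among the members. Anln (target ANLN) encodes anillin, the scaffold of the contractile ring, and had 765, 848 and 884 in EPA cells and 534, 624 and 610.2 in control cells. Every EPA array exceeded every control array, and Anln rose 1.41-fold (832 ± 60.7 against 589 ± 48.4, SD, n = 3 each, log2 0.50, SE 0.0903, limma adjusted p = 0.00271). Ect2, the exchange factor that activates RhoA at the furrow, had 42.4, 40.2 and 50.7 in EPA cells and 37.3, 31.2 and 38.1 in control cells. All its control arrays were below the background limit, and its EPA level was 1.11-fold that limit (limma adjusted p = 0.0507, not past). Ect2 passed the filter on dim targets through its EPA arrays alone, so this ratio had to exceed 1. The direction of its difference was thus largely set by that filter, and its size is not known. Racgap1, of the complex that recruits Ect2 to the central spindle, was not above background on any array.

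**Figure D3:**
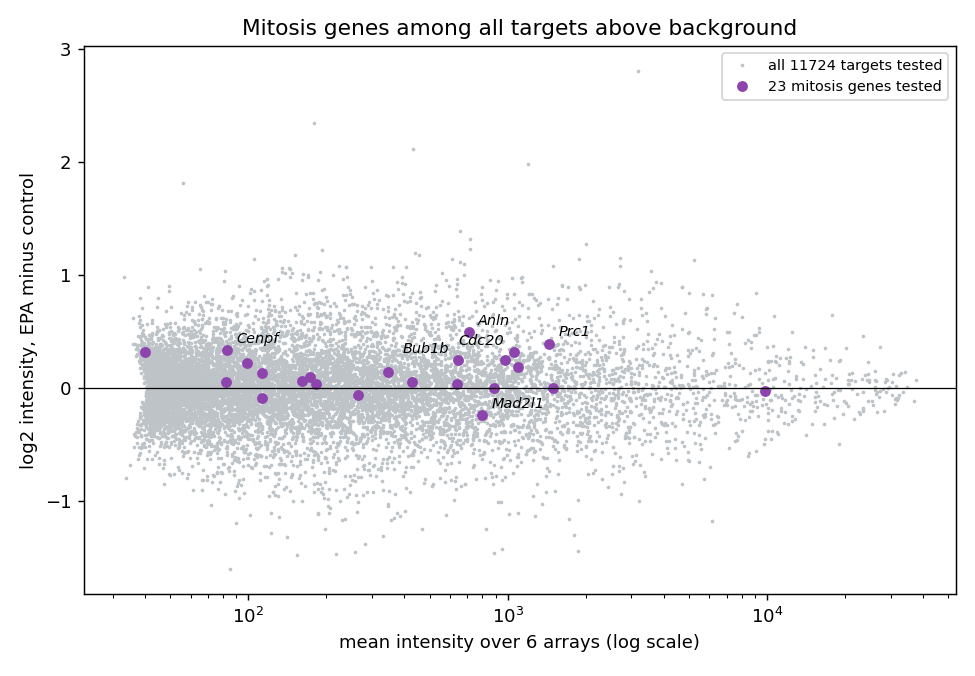
Log2 intensity difference, EPA minus control (vertical axis), against mean intensity over 6 arrays (horizontal axis, log scale) for all 11724 targets above background (grey) and the 23 tested mitosis genes (purple), with the 6 called genes named. The mitosis genes lie between -0.24 and 0.50, inside the range of the other targets.

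Counted by overlap alone, 9 of the 23 genes had every EPA array above every control array and 1 had every EPA array below, where 23% and 23.9% of all tested targets did so. The 9 include Ect2, which the filter admitted through its EPA arrays alone. Over the 23 genes the median log2 value relative to the control mean was 0.10, 0.09 and 0.09 on the 3 EPA arrays and -0.02, -0.02 and 0.00 on the 3 control arrays. The medians of the 3 EPA arrays were thus alike, and none of them stood out. All 3 are taken from the same control mean, so a deviation of the controls would move them together. The 10 members not above background ran from 18.02 to 41.4 (median 28.5) in EPA cells and from 19.5 to 42.1 (median 27.9) in control cells, against a background mode of 28.2. Of these 10 targets, 5 rest on 1 bead probe, as do 5 of the 23 above background, and each called gene has at least 2.

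The authors' deposited table of 4423 targets holds the same comparison, and 6 members are in it: Anln, Prc1, Cenpf, Cdc20, Bub1b and Mad2l1. Its ratios are 1.41 for Anln, 1.31 for Prc1, 1.27 for Cenpf, 1.24 for Cdc20, 1.18 for Bub1b and 0.85 for Mad2l1. The authors' deposited table was made from the same 6 samples and is not an independent measurement.

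How firmly these calls stood varied between genes. Over 13 other settings, 6 of which leave out 1 array, Anln and Cdc20 passed in 12 each. The 13 are not separate checks. Centring arrays on their median could hardly change a call in quantile-normalised data, and 3866 targets were called with and without it. Keeping 1 target per named gene left each log2 difference of these genes as it was and moved only the p-values. Counts of settings passed, here and elsewhere, can thus overstate how firm a call is. Prc1 passed in 11, and not without EPA replicate 3 (log2 0.36, limma adjusted p = 0.0525). Cenpf passed in 9, and not without EPA replicate 1, control replicate 1 or control replicate 3, where its log2 difference was 0.27, 0.32 and 0.30. Bub1b passed in 6 and kept its call with control replicate 2 left out, but not with any other array left out (log2 0.20 to 0.26 there) and not with the background level subtracted (limma adjusted p = 0.0706). Mad2l1 passed in 5 and was lost without any 1 of the 6 arrays, its log2 difference staying between -0.27 and -0.20 and its limma adjusted p between 0.0519 and 0.104. Without the filter on dim targets none of the 6 passed in limma, the adjusted p of Anln being 0.058, with 6 members higher and 1 lower at an unadjusted p under 0.05.

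**Figure D4:**
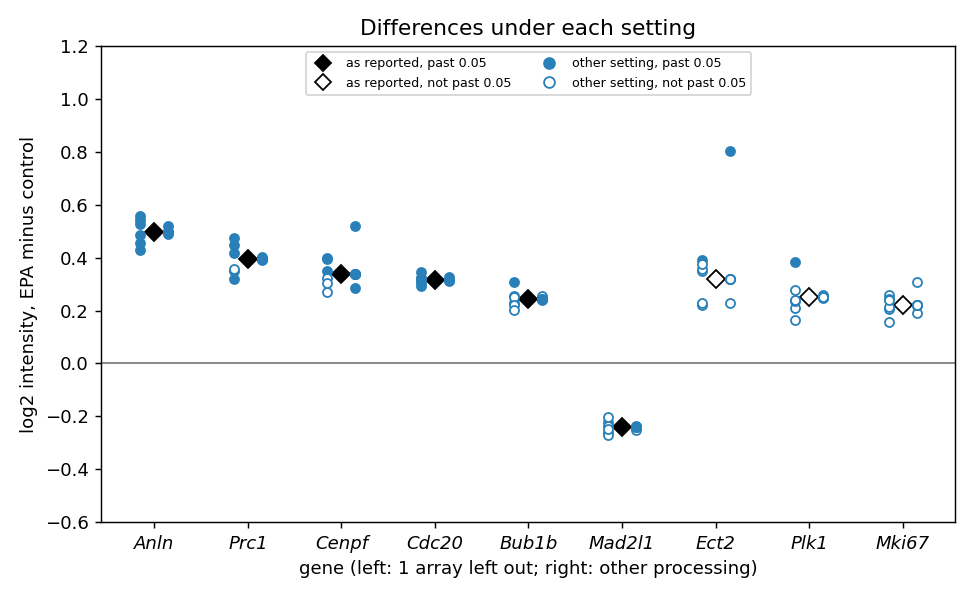
Log2 intensity difference, EPA minus control (vertical axis), of the 6 called genes and of Ect2, Plk1 and Mki67 as reported (diamonds), with 1 array left out (left circles) and with other processing (right circles). Filled symbols passed an adjusted p of 0.05, and Anln stayed between 0.43 and 0.56 while Mad2l1 lost its filled symbol whenever 1 array was left out.

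Other genes of the mitotic machinery went both ways and showed larger falls than the members. Of 106 such genes on 5 lists, 99 had a target ID and 77 were tested, with 6 higher, 8 lower and 63 not past (18.2% called, against 33% of all targets) and a median log2 difference of 0.01. Of the 8 that fell, 7 were on the kinetochore and centromere list, which had 26 tested genes, 1 of them higher and 18 not past, and a median log2 difference of -0.10. Its share of called genes, 30.8%, was near the 33% of all targets, while its 7 falls among 26 stand beside 16.6% of all targets called lower, and nothing particular to the list was tested. Kinetochores are built from an inner network on the centromere and an outer Knl1, Mis12 and Ndc80 network that binds microtubules.

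Itgb3bp, which encodes the inner kinetochore protein CENP-R, showed the largest fall, with 206, 212 and 215 in EPA cells and 326, 368 and 329 in control cells (log2 -0.69, SE 0.0775, limma adjusted p = 0.000209). It passed in all 13 other settings, and its groups lay far apart relative to their spread. Cenpq and Cenpt, further genes of the inner network, fell by 0.36 and 0.35 on the log2 scale. Cenpt did not pass without EPA replicate 3 (log2 -0.30) or without control replicate 1 (log2 -0.29). Sgo2a, a shugoshin gene that protects centromeric cohesion, was the one gene of this list that rose, with 269, 287 and 291 in EPA cells and 174, 204 and 213 in control cells (log2 0.53, limma adjusted p = 0.00222). Its relative Sgo1 fell (log2 -0.29).

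The remaining falls on this list were Spc24 (log2 -0.40), Spc25 (log2 -0.32) and Pmf1 (log2 -0.29), named, as Sgo1 was, after their values were seen. Spc24 and Spc25 encode the inner end of the Ndc80 complex, and the log2 difference of Ndc80 itself was 0.03. Spc24 had 344, 277 and 267 in EPA cells and 401, 395 and 367 in control cells, and Spc25 had 308, 269 and 302 in EPA cells and 377, 380.3 and 343 in control cells, so neither gene's groups overlap. That these subunits differ from Ndc80 was not tested. Pmf1, of the Mis12 complex, passed in 7 of the 13 other settings, Spc24 and Sgo1 in 8 and Spc25 in 9. Each was lost without control replicate 1 (log2 -0.29 for Pmf1, -0.37 for Spc24, -0.25 for Sgo1 and -0.30 for Spc25). Each was also lost without some of the other arrays, Spc24 without EPA replicate 2, EPA replicate 3 or control replicate 2, and Spc25 without EPA replicate 2 or control replicate 2. Pmf1 was lost without EPA replicate 1, EPA replicate 3 or control replicate 3, and Sgo1 without EPA replicate 2, EPA replicate 3 or control replicate 3, all with log2 differences between -0.38 and -0.24.

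**Figure D5:**
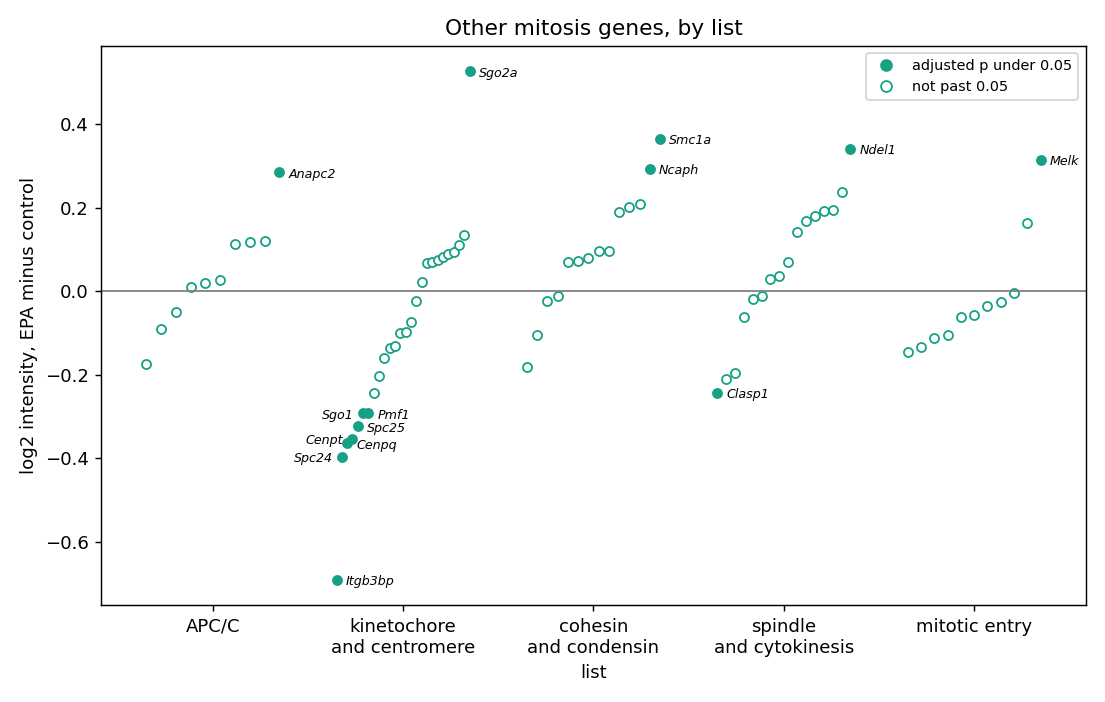
Log2 intensity difference, EPA minus control (vertical axis), of the 77 tested genes on 5 lists of other mitosis genes, 1 point a gene, ordered by value within each list. Filled points passed an adjusted p of 0.05, and 7 of the 8 filled points below 0 are in the kinetochore and centromere list.

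The other lists held few calls beside the 33% of all targets called. The shares were 14.3% for cohesin and condensin, 12.5% for spindle and cytokinesis, 10% for the APC/C and 9.09% for mitotic entry. No difference from the share of all targets was tested for these short lists. Of 14 tested cohesin and condensin genes 2 rose, Smc1a of the cohesin ring (log2 0.36, limma adjusted p = 0.00844) and Ncaph of condensin (log2 0.29, limma adjusted p = 0.0457). For the spindle and cytokinesis list, 1 of 16 rose (Ndel1, a dynein regulator, log2 0.34) and 1 fell (Clasp1, a microtubule plus-end protein gene, log2 -0.24). Among 10 APC/C genes only Anapc2, the cullin subunit, passed (log2 0.28), and among 11 genes of the mitotic entry list only the kinase gene Melk passed (log2 0.31), both as rises. Without control replicate 1, Anapc2 (log2 0.26) and Ndel1 (log2 0.30) did not pass. Ncaph and Clasp1 passed with control replicate 2 left out and with no other array left out (log2 0.22 to 0.34 for Ncaph and -0.26 to -0.21 for Clasp1 there). With the background level subtracted, Ncaph did not pass and the log2 difference of Clasp1 was -0.49. Clasp1 also did not pass with 16 added to each intensity (log2 -0.19) or with an intensity trend and robust prior. In the promoter windows, matched for 82 of these genes, 34 genes had a CHR match, among them 0 of the 6 matched genes that rose and 3 of the 6 matched genes that fell.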

How the data were processed

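RNA of 3 EPA and 3 control samples was converted to labelled cRNA and hybridised to Illumina arrays, per the labels' protocols. Quantile normalisation was done in GenomeStudio 1.7.0, per the file headers. The deposited table of intensity was used, linear and equal in median across arrays. The way in which probes of 1 target were combined is not stated in any file used. The authors' deposited table gives a ratio, its log2 value and p-values with the test not stated, so its p-value columns were not used. A further 102 columns are headed by array numbers with no counterpart in the labels, and were not used.

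A target was tested if it exceeded a limit of 39.706 on all 3 arrays of a group. The limit starts from the mode of the intensities under 200 (28.215). To this was added the spread below the mode (6.9866) times the normal quantile for a one-sided level of 0.05. This kept 11724 targets (38%). Groups were compared on log2 intensity with limma 3.58.1 in R 4.3.3 (lmFit, eBayes, two-sided, Benjamini-Hochberg over all 11724, threshold 0.05), and the fit was tested on simulated data. Folds are ratios of geometric means, understated for dim genes. Values per array are given for called members and a fixed panel of 9 (Cdk1, Ccnb1, Plk1, Aurka, Aurkb, Foxm1, Bub1b, Top2a and Mki67), and for further members beside them. Of each other list up to 4 called genes with the smallest p are named. The members and lists were chosen with earlier results of these data known. The number of arrays limits the precision.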

Additional observations from a re-analysis of the deposited data

How the results depend on the processing

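The counts were recomputed with limma under 14 alternatives. Without the filter on dim targets, 0 members were higher and 0 lower (6 and 1 at an unadjusted p under 0.05), 1167 targets in all were called, and 0 other mitosis genes were higher and 1 lower (6 and 10 at an unadjusted p under 0.05). With the background level subtracted, 5 members were higher and 0 lower (1 lower at an unadjusted p under 0.05): Mad2l1 and Bub1b did not pass and Ect2 did (limma adjusted p = 0.0488), and Ncaph and Pmf1 did not pass. Members called higher numbered 6 with targets above the limit on all 6 arrays, Mki67 being added, and 6 with 1 target per named gene, Ect2 being added. In every setting where Ect2 passed, the filter had admitted it through its EPA arrays alone. Those counts of higher members thus include a gene whose direction was largely set by the filter. Leaving out 1 array at a time gave 3 to 5 members higher and 0 lower each time (1 lower at an unadjusted p under 0.05), and for the other mitosis genes 3 to 6 higher and 2 to 6 lower. The fewest members, 3, were called higher without EPA replicate 3, control replicate 1 or control replicate 3, and the fewest other genes were called without control replicate 1. The labels do not state whether same-numbered samples were paired. Deviations of same-numbered arrays from their group means correlated at -0.036, -0.18 and 0.10. These values cannot decide whether samples were paired, since the 3 deviations within a group depend on each other. With the replicate number as a block, 5 members were higher and 0 lower (1 at an unadjusted p under 0.05), Bub1b and Mad2l1 not passing and Ect2 passing, and 3489 targets were called. Of the other mitosis genes 5 were then higher and 6 lower, Ncaph, Clasp1 and Pmf1 not passing. No called difference changed direction under any alternative. Small differences in bright genes are limited by the 3 arrays a group, and those of dim genes also by signal near background.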
